A study of Homo sapiens with 12 samples.

Results

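The MYC, MAX and MondoA network of transcription factors was followed through 10 genes, taken by name from the 26485 genes of the count files: MYC, its partner MAX, the 4 antagonists MXD1, MXD4, MXI1 and MNT, the parallel pair MLX and MLXIP, and the 2 sentinel target genes TXNIP and ARRDC4. The human ovarian cancer cell line OVCAR8, an established line, received vehicle (control), 150 nM EC359, 100 nM trametinib or both agents (combination) for 7 h. EC359 is an inhibitor of the leukaemia inhibitory factor receptor LIFR, and trametinib inhibits the kinases MEK1 and MEK2 upstream of ERK. Polyadenylated RNA of 3 libraries per condition, 12 in all, was sequenced. All conditions are of 1 cell line, and the labels do not say whether the libraries came from separate cultures, so p-values measure the spread between these libraries, which may be technical.

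MYC binds DNA as a heterodimer with MAX at E-box sequences and activates genes for ribosome production, nucleotide synthesis and cell cycle entry. The MXD proteins, MXI1 and MNT compete for MAX, occupy the same sequences and recruit SIN3 and histone deacetylase corepressors. MLXIP, also called MondoA, pairs instead with MLX, responds to glucose 6-phosphate and binds carbohydrate response elements, with TXNIP and ARRDC4 as its best known targets. In many tumours MYC transcription depends on growth factor signaling through ERK, and ERK phosphorylation also slows the decay of MYC protein. Only RNA was measured here.

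Between 24790392 and 32467283 reads were counted per library, and 14866 genes, all 10 members among them, passed the filter on low counts. Levels are CPM (counts scaled to a common library total) after TMM scaling, and differences are log2 fold changes with their standard error (SE) from the quasi-likelihood test of edgeR. The p-values were adjusted over all genes tested by the Benjamini-Hochberg method. A member was called higher or lower at an adjusted p under 0.05. Because replicate libraries differed little (biological coefficient of variation 3.953%), small changes passed the test, and the percentage of all genes called is given beside each count of members. Of the epithelial markers, KRT7, KRT8, KRT18, PAX8 and EPCAM were detected in every library, while MUC16 had at most 1 count in a library. Among markers of other cells, PTPRC had 0 counts in all libraries, ALB at most 1 and PECAM1 at most 6, whereas CD68 (47.9 to 60.6 CPM) and COL1A1 (219 to 525 CPM) were present. The summed level of these 5 markers, most of it COL1A1, was 465 to 491 CPM in control and 277 to 293 CPM with EC359. It was 563 to 576 CPM with trametinib and 364 to 388 CPM for the combination, and its part in the results was not tested. All 6 MEK and ERK output genes examined (DUSP6, SPRY4, SPRED1, ETV4, ETV5 and CCND1) fell with trametinib and with the combination. With EC359, 4 of them were higher (SPRY4 by 2.05, DUSP6 by 1.86, ETV5 by 0.41 and ETV4 by 0.24) and CCND1 was lower (-0.33). All but CCND1 were higher with the combination than with trametinib alone, where 35.2% of all genes were higher. DUSP6 and SPRY4 had only 8 and 22 counts in all with trametinib, so the size of their differences from it is imprecise. Of all genes, 15.2% were lower with trametinib, 34.7% were lower with the combination and 30.8% were higher with EC359.

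Compared to control, EC359 raised 7 of the 10 members, lowered TXNIP and left MLX and ARRDC4 without a call, against 61% of all genes called. Trametinib raised MXD1, MXD4 and MNT and lowered MYC and MLX, with 5 members not called, against 28.3% of all genes. The combination raised MYC and its 4 antagonists as well as MLXIP, and lowered MLX and TXNIP, against 69.7% of all genes. With a change of at least 2-fold required as well, EC359 left 4 members (MXD1, MXI1, MNT and TXNIP, against 6.99% of all genes), the combination 3 (MXD1, MNT and TXNIP, against 13.2%) and trametinib none (against 1.43%). The libraries of treated and control cells did not overlap for 8 members with EC359 (64.8% of all genes), 7 with trametinib (40.1%) and 9 with the combination (71.8%). In bulk RNA, fewer cells of a type and less RNA per cell cannot be told apart. Scaling by library totals alone shifted the median log2 fold change of all genes from -0.01 to -0.15 with EC359 and from -0.01 to -0.14 with the combination. It moved the share of higher calls among all calls from 50.4% to 31.8% with EC359, from 46.1% to 58.4% with trametinib and from 50.2% to 36.1% with the combination, so that small changes depend on this choice.

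**Figure D1:**
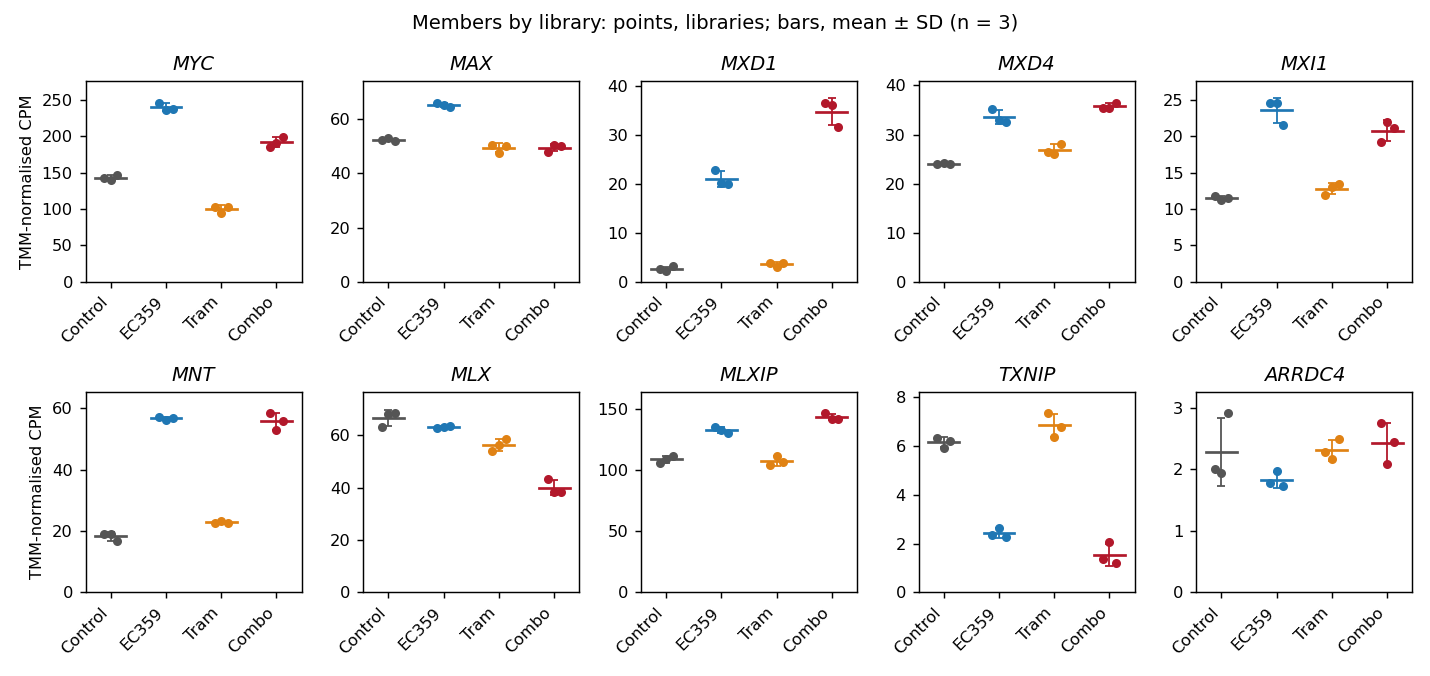
Level of each of the 10 members in the 12 libraries, in TMM-normalised CPM on a linear axis from 0, with points for libraries and bars for the mean and SD of 3 libraries per condition. MXD1 and MNT sit far above control in all EC359 and combination libraries, MYC lies below control only with trametinib, and TXNIP is lowest with the combination.

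**Figure D2:**
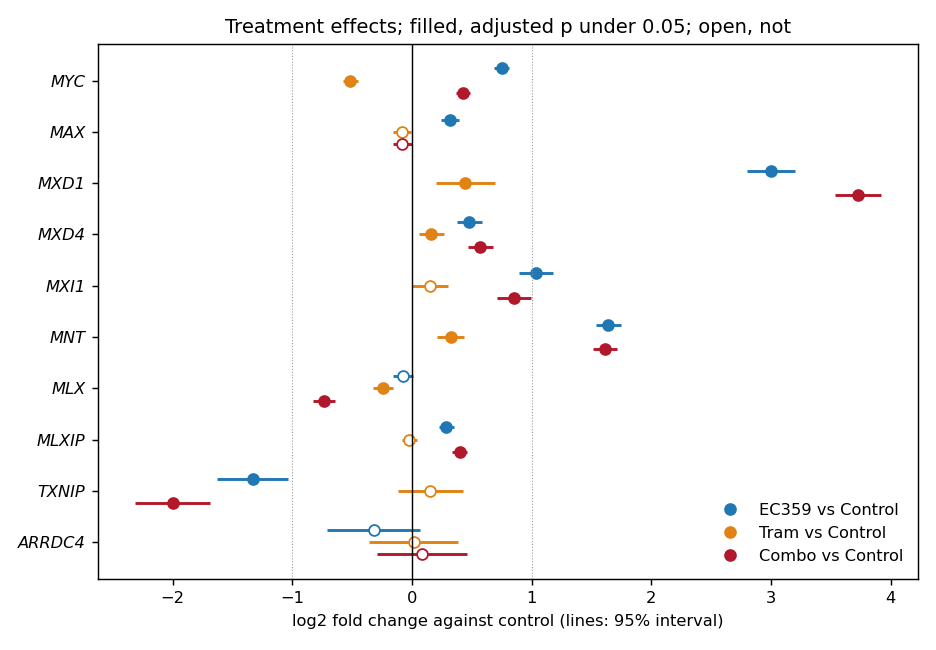
Log2 fold change of each member against control (x axis) for EC359, trametinib and the combination, with 95% intervals as lines, filled points for an adjusted p under 0.05 and dotted lines at 2-fold. MXD1 shows the largest rise, 3.73 with the combination, and TXNIP the largest fall, -2.0 with the combination.

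MYC, the activating member of the network, lies on chromosome 8 from 127736069 to 127741434 on the plus strand of hg38 and has 3 exons in the authors' annotation. It was measured at 142, 140 and 147 CPM in the control libraries and at 246, 237 and 237 CPM with EC359. With trametinib it stood at 103, 93.9 and 102 CPM, and with the combination at 186, 191 and 199 CPM. None of the 4 conditions overlapped with another, and their order was trametinib, control, combination and EC359. EC359 raised MYC by a log2 fold change of 0.75 (SE 0.03, edgeR adjusted p = 9.56e-28), and trametinib lowered it by -0.52 (SE 0.03, adjusted p = 3.26e-19). The 2 single agents thus moved MYC in opposite directions. With both agents the level was higher than in control by 0.43 (SE 0.03, adjusted p = 7.98e-18) but lower than with EC359 alone by -0.32 (SE 0.03, adjusted p = 2.35e-13). Against trametinib alone the combination was higher by 0.94 (SE 0.03, adjusted p = 3.12e-31). The sum of the single-agent effects on the log2 scale was 0.23, and the observed combination effect exceeded it by 0.19 (95% interval 0.11 to 0.28, adjusted p = 0.000461).

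MAX, the obligate DNA-binding partner of MYC and of its antagonists, lies on chromosome 14 from 65006101 to 65102695 on the minus strand. Its control libraries had 52.2, 53.1 and 52.1 CPM, and those with EC359 had 66.2, 65.4 and 64.5 CPM. Trametinib libraries had 50.5, 47.7 and 50.3 CPM and combination libraries 48.1, 50.3 and 50.2 CPM. The EC359 libraries stood highest, and all controls lay above all trametinib and combination libraries, which overlapped with each other. The rise with EC359 was 0.32 (SE 0.04, edgeR adjusted p = 2.53e-10). Neither trametinib (-0.08, SE 0.04, adjusted p = 0.111) nor the combination (-0.08, SE 0.04, adjusted p = 0.0596) gave a call against control, with 95% intervals of -0.16 to 0.00 in both cases. Under scaling by library totals the combination was called lower, at -0.22 (adjusted p = 1.99e-06), beside a shift of -0.14 in the median of all genes. The combination lay below EC359 alone by -0.40 (SE 0.04, adjusted p = 8.84e-13) and did not differ detectably from trametinib alone (difference 0.00, 95% interval -0.08 to 0.08). That difference was -0.16 (adjusted p = 0.000301) under scaling by library totals, where the median of all genes shifted to -0.16.

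The 4 antagonists, which pair with MAX and repress E-box genes, were all higher with EC359 and with the combination than in control. MXD1 stood out. It is the founding MXD protein, known from differentiating cells, and lies on chromosome 2 from 69915041 to 69942944 on the plus strand. In control its level was 2.50, 2.22 and 3.12 CPM, from 246 counts in all. EC359 brought it to 22.9, 20.1 and 20.1 CPM. With the combination it reached 36.6, 36.2 and 31.6 CPM. All combination libraries exceeded all EC359 libraries, which in turn exceeded all controls. The log2 fold change was 3.0 with EC359 (SE 0.10, edgeR adjusted p = 8.85e-30), or 7.99-fold, and 3.73 with the combination (SE 0.10, adjusted p = 2.13e-34), or 13.2-fold. Of the 14866 genes tested, 42 rose more than MXD1 with EC359 and 26 with the combination. Trametinib alone gave 3.74, 3.08 and 3.86 CPM, which overlapped with the control libraries. Its rise of 0.45 (SE 0.12, adjusted p = 0.00391) was no longer called without control library 2 (0.34, adjusted p = 0.0563). The combination exceeded EC359 alone by 0.73 (SE 0.08, adjusted p = 2.06e-11). Its difference from the summed single effects, 0.28 (95% interval -0.01 to 0.57, adjusted p = 0.141), was called only without control library 2 (0.39, adjusted p = 0.0493).

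MNT, a MAX partner present in most proliferating cells, lies on chromosome 17 from 2384060 to 2400964 on the minus strand. Its level was 19.0, 19.0 and 16.7 CPM in control and 57.3, 56.1 and 56.7 CPM with EC359. The combination libraries had 58.4, 52.9 and 55.8 CPM and those with trametinib 22.5, 23.1 and 22.7 CPM. MNT was therefore about 3-fold above control in every library that had received EC359, with or without trametinib. The log2 fold changes were 1.64 with EC359 (SE 0.05, edgeR adjusted p = 8.15e-35) and 1.62 with the combination (SE 0.05, adjusted p = 1.2e-34). Between these groups the difference was -0.03 (95% interval -0.12 to 0.07, adjusted p = 0.673), and it changed sign without combination library 2 (0.01). Trametinib alone raised MNT by 0.32 (SE 0.06, adjusted p = 4.34e-06), and the combination fell short of the summed single effects by -0.35 (95% interval -0.49 to -0.21, adjusted p = 0.000109).

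MXI1, also known as MXD2, lies on chromosome 10 from 110207605 to 110287365 on the plus strand. It had 11.8, 11.2 and 11.6 CPM in control, 24.6, 24.5 and 21.6 CPM with EC359 and 19.2, 21.98 and 21.2 CPM with the combination. With trametinib the values were 11.95, 13.0 and 13.5 CPM. Every EC359 and combination library was above every control and trametinib library, while EC359 and combination overlapped. EC359 raised MXI1 by 1.03 (SE 0.07, edgeR adjusted p = 2.79e-19), or 2.05-fold, and the combination by 0.85 (SE 0.07, adjusted p = 5.15e-16), whereas trametinib gave 0.15 (SE 0.07, adjusted p = 0.123). The combination was lower than EC359 alone by -0.18 (SE 0.07, adjusted p = 0.0205), a call that was lost without EC359 library 1 (-0.15, adjusted p = 0.0893), EC359 library 2 (-0.15, adjusted p = 0.103) or combination library 1 (-0.13, adjusted p = 0.145). Against the sum of the single effects it was lower by -0.33 (95% interval -0.53 to -0.13, adjusted p = 0.00761).

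MXD4, the antagonist with the highest level per kilobase in control, lies on chromosome 4 from 2247433 to 2262012 on the minus strand, and 80 of its exonic bases are shared with the microRNA gene MIR4800 on the same strand. Control libraries had 23.96, 24.2 and 24.04 CPM, EC359 libraries 35.2, 33.0 and 32.6 CPM and combination libraries 35.4, 35.4 and 36.5 CPM. Trametinib libraries had 26.5, 26.1 and 28.2 CPM. The controls were lowest, trametinib lay just above them, and EC359 and combination were both clearly higher. The rises were 0.48 with EC359 (SE 0.05, edgeR adjusted p = 8.55e-12), 0.57 with the combination (SE 0.05, adjusted p = 1.16e-14) and 0.16 with trametinib (SE 0.05, adjusted p = 0.0162). The last was not called without trametinib library 3 (0.13, adjusted p = 0.115). MXD4 did not differ detectably between combination and EC359 (0.09, 95% interval -0.01 to 0.19, adjusted p = 0.133), nor between the combination and the summed effects (-0.07, 95% interval -0.22 to 0.08, adjusted p = 0.522).

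Per kilobase of exon, the summed level of the 4 antagonists was 13.6 ± 0.201 CPM per kb in control and 15.8 ± 0.486 with trametinib, against 30.5 ± 1.08 with EC359 and 32.6 ± 0.325 for the combination (SD, n = 3 each). Its makeup shifted as well. In control MXD4 made up 46.9% ± 0.766 of the sum and MXD1 3.42% ± 0.65 (SD, n = 3). With the combination MXD4 made up 29.1% ± 0.754 and MXD1 19.0% ± 1.39. MNT went from 27.6% ± 1.63 in control to 38.4% ± 1.18 with EC359 and 35.3% ± 1.48 with the combination. The ratio of MYC to this sum, which compares RNA levels and not proteins, was 4.43 ± 0.166 for control, 3.33 ± 0.0558 for EC359, 2.67 ± 0.141 for trametinib and 2.49 ± 0.108 for the combination (SD, n = 3). All treated libraries lay below all controls, although MYC itself was above control in 2 of the 3 treatments, and the ranges of trametinib (2.54 to 2.82) and combination (2.38 to 2.60) overlapped. The ratio of MYC to MAX was instead highest with the combination, at 4.97 ± 0.107 against 3.49 ± 0.115 in control, and lowest with trametinib, at 2.59 ± 0.05. These ratios are given without a test. The sum leaves out MXD3, a further MXD gene that is not a member. Its level per kb was 5.67 ± 0.269 in control and 4.98 ± 0.466 with EC359 (SD, n = 3). It was 8.03 ± 0.438 with trametinib and 5.57 ± 0.277 with the combination. The shares and the ratio of MYC to the sum hold only without MXD3, and the order of trametinib and combination depends on that choice. Across the 12 libraries, which share the 4 conditions, Pearson's r of log2 CPM was between 0.94 and 0.98 for the 6 pairs of antagonists.

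**Figure D3:**
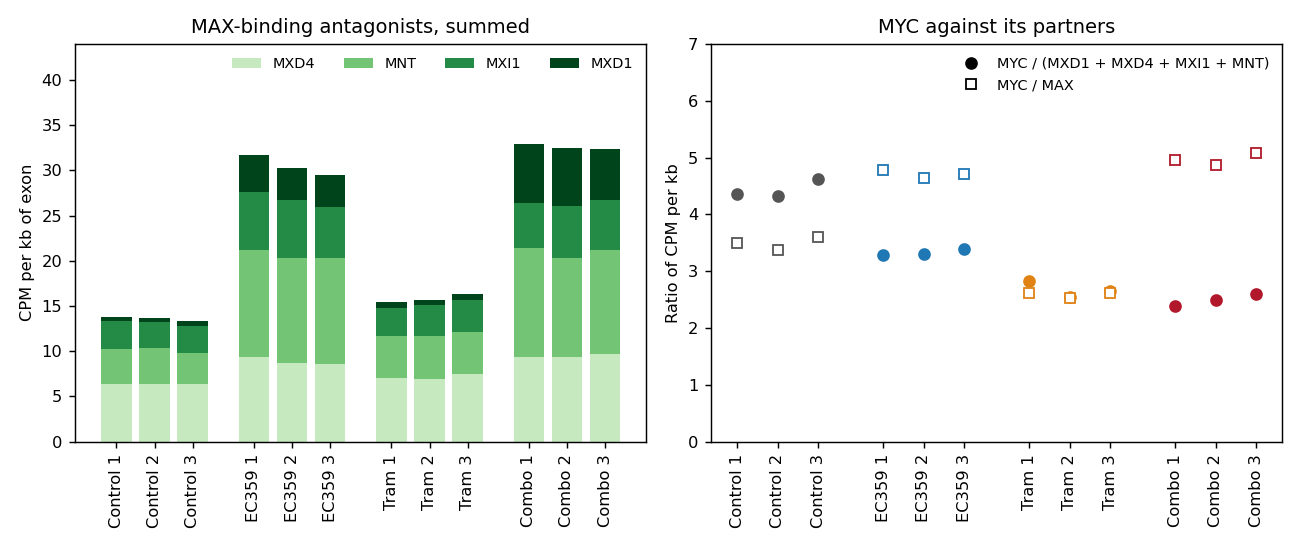
Left, CPM per kb of exon of MXD4, MNT, MXI1 and MXD1 stacked for each of the 12 libraries on an axis from 0. Right, the ratio of MYC to their sum (filled circles) and of MYC to MAX (open squares) in the same libraries. The antagonist sum is 29.5 to 33.0 CPM per kb in the EC359 and combination libraries and 13.4 to 16.4 in the others.

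RefSeq windows of 250 bases before a transcript start (GRCh38.p14) were found for 9 of the 10 members, all but MYC, 13 windows in all. They were searched on both strands for the E-box CACGTG, which 6.34% of 35116 such windows hold, and for the carbohydrate response element, written as CACGNG followed after 5 bases by CACGNG, which 16 windows (0.0456%) hold. An E-box was found in windows of MXD4, MNT, MLX and ARRDC4, and a carbohydrate response element only in that of TXNIP. The bases before MXD1 and MNT, the antagonists with the largest rises, are shown first, up to the first base of the authors' gene where that starts earlier. The MXD1 sequence (chr2:69914859-69915040, plus strand) holds neither motif, and in that of MNT (chr17:2401061-2401310, minus strand) the E-box, at -193 to -188 from the RefSeq start, is in capitals. A match is a description of letters and not a bound site.
MXD1: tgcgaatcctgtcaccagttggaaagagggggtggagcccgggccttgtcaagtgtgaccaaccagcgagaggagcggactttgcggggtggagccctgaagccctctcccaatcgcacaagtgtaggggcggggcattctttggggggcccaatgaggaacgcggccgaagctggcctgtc
MNT: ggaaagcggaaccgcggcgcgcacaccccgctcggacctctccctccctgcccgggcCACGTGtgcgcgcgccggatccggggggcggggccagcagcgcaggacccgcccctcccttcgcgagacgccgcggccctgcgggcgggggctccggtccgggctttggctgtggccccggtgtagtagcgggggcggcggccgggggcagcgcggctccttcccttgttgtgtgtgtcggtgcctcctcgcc

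MLX and MLXIP, the parallel pair of this network, moved in opposite directions with the combination. MLX, the MAX-like partner, lies on chromosome 17 from 42567060 to 42573203 on the plus strand and shares 775 exonic bases with PSMC3IP on the opposite strand, from which stranded counting separates it. It had 63.1, 68.0 and 68.4 CPM in control and 62.7, 63.0 and 63.4 CPM with EC359. Trametinib libraries had 53.8, 56.4 and 58.7 CPM and combination libraries 43.5, 38.2 and 38.4 CPM. EC359 and control overlapped, trametinib lay below both, and the combination was lowest. The log2 fold changes were -0.08 with EC359 (SE 0.04, edgeR adjusted p = 0.101), -0.24 with trametinib (SE 0.04, adjusted p = 5.2e-06) and -0.74 with the combination (SE 0.04, adjusted p = 3.67e-21). The first was called lower without control library 1 (-0.11, adjusted p = 0.0331) and under scaling by library totals (-0.21, adjusted p = 1.53e-05). The fall with the combination went beyond the summed single effects, -0.32, by -0.42 (95% interval -0.54 to -0.29, adjusted p = 3.54e-07). It was also lower than with EC359 alone, by -0.66 (SE 0.05, adjusted p = 3.6e-18), and than with trametinib alone, by -0.49 (SE 0.05, adjusted p = 3.84e-14).

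MLXIP, the glucose-responsive MondoA itself, lies on chromosome 12 from 122078728 to 122147347 on the plus strand. Its level was 106, 109 and 112 CPM in control and 104, 112 and 106 CPM with trametinib. It was 136, 133 and 131 CPM with EC359 and 147, 142 and 142 CPM for the combination. The combination was highest, EC359 next, and trametinib overlapped with control. EC359 raised MLXIP by 0.29 (SE 0.03, edgeR adjusted p = 4.19e-12) and the combination by 0.40 (SE 0.03, adjusted p = 1.86e-17), which exceeded EC359 alone by 0.11 (SE 0.03, adjusted p = 0.00194). Trametinib gave -0.02 (SE 0.03, adjusted p = 0.659), a value that turned to 0.00 or just above under scaling by library totals and without trametinib library 1. The excess of 0.13 over the summed effects (95% interval 0.05 to 0.22, adjusted p = 0.0153) was not called under scaling by library totals (0.10, adjusted p = 0.0676), without control library 3 (0.11, adjusted p = 0.06) or without trametinib library 1 (0.11, adjusted p = 0.0757). Per kilobase of exon, the ratio of MLXIP to MLX was 0.499 ± 0.0128 for control, 0.643 ± 0.0156 for EC359, 0.582 ± 0.0273 for trametinib and 1.10 ± 0.059 for the combination (SD, n = 3). Only the combination libraries were above 1.

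Of the 2 target genes, TXNIP fell with EC359 and with the combination, while ARRDC4 was not called in any comparison. TXNIP encodes thioredoxin-interacting protein, an alpha-arrestin that restrains glucose uptake, and lies on chromosome 1 from 145992442 to 145996631 on the minus strand. It was a low-level gene here, with 32 to 235 counts per library. Control libraries had 6.32, 5.93 and 6.21 CPM and trametinib libraries 7.33, 6.38 and 6.78 CPM. Levels with EC359 were 2.37, 2.65 and 2.29 CPM and with the combination 1.36, 2.05 and 1.202 CPM. All libraries with EC359 were far below control, and all combination libraries were below those with EC359 alone. TXNIP fell by 1.33 on the log2 scale with EC359 (SE 0.15, edgeR adjusted p = 1.57e-11) and by 2.0 with the combination (SE 0.16, adjusted p = 5.21e-17), to 0.251 of control. Of the 14866 genes tested, 201 and 137 had a lower value in these comparisons. Trametinib alone gave 0.15 (SE 0.13, adjusted p = 0.448). The combination was lower than EC359 by -0.66 (SE 0.17, adjusted p = 0.000855) and lower than the sum of the single effects by -0.82 (95% interval -1.25 to -0.38, adjusted p = 0.00258). Leaving out single libraries put this last value between -1.08 and -0.66.

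ARRDC4, the second alpha-arrestin and a close relative of TXNIP, lies on chromosome 15 from 97960703 to 97973838 on the plus strand. Its level was 2.0, 1.93 and 2.91 CPM in control and 1.77, 1.98 and 1.73 CPM with EC359. It was 2.28, 2.16 and 2.50 CPM with trametinib and 2.75, 2.09 and 2.44 CPM for the combination. All treated groups overlapped with control. The log2 fold changes were -0.32 with EC359 (95% interval -0.71 to 0.06, edgeR adjusted p = 0.146), 0.02 with trametinib (-0.36 to 0.39, adjusted p = 0.967) and 0.08 with the combination (-0.29 to 0.46, adjusted p = 0.709). With 145 to 216 counts per condition, changes within these intervals could not be detected. The signs of the trametinib and combination values turned when 1 library was left out, and the EC359 value was called lower under scaling by library totals (-0.45, adjusted p = 0.0337). The interval of the ARRDC4 change with the combination did not reach that of TXNIP, which ran from -2.31 to -1.68. Combination and EC359 did not differ by the test (0.40, 95% interval 0.01 to 0.79, adjusted p = 0.0811), except without combination library 2 (0.50, adjusted p = 0.0489). Over the 12 libraries Pearson's r of log2 CPM between the 2 targets was 0.05, whereas that of TXNIP with MLXIP was -0.98. The latter was not particular to this pair. TXNIP also had -0.96 with MXD1, -0.93 with MNT, -0.925 with MXD4 and -0.86 with MXI1, and 0.64 with MLX. These values rest on 4 conditions, and those of ARRDC4 also on few counts.

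The upstream sequences of the 2 targets are shown because TXNIP had the largest fall of all members and ARRDC4 was not called. In the TXNIP sequence (chr1:145996632-145996829, minus strand, GRCh38.p14, RefSeq), capitals mark the carbohydrate response element at -88 to -72 from the RefSeq start. In that of ARRDC4 (chr15:97960453-97960702, plus strand), capitals mark the E-box at -210 to -205.
TXNIP: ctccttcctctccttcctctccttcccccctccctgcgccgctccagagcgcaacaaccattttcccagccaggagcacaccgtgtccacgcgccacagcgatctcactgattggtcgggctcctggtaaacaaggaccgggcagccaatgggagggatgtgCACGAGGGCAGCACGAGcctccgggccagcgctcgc
ARRDC4: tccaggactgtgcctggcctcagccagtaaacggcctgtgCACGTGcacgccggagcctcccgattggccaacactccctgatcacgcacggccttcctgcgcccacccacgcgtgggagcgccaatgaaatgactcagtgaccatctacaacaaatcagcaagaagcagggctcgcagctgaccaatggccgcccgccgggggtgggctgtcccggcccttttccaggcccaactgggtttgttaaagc
The full carbohydrate response element as written was not matched in the ARRDC4 window, which says only that these letters are not in this window. Other forms of the element were not searched, so the contrast with TXNIP depends on how the element was written.

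The combination was compared with the sum of the single agents for all members. Of the 10, MYC and MLXIP were called above that sum and MAX, MXI1, MNT, MLX and TXNIP below it, against 30.3% of all genes called. No member was called at 2-fold or more, against 1.57% of all genes. Between combination and EC359 alone, MXD1 and MLXIP were higher and MYC, MAX, MXI1, MLX and TXNIP lower, against 49.2% of all genes called. None of these differences reached 2-fold (3.24% of all genes), and the libraries of 8 members did not overlap (53.7% of all genes). Between combination and trametinib alone, MYC, the 4 antagonists and MLXIP were higher and MLX and TXNIP lower, against 68.2% of all genes. MXD1, MNT and TXNIP passed 2-fold there (11.6% of all genes), and again 8 members had libraries that did not overlap (70.3% of all genes). These comparisons share libraries and are not independent of each other.

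**Figure D4:**
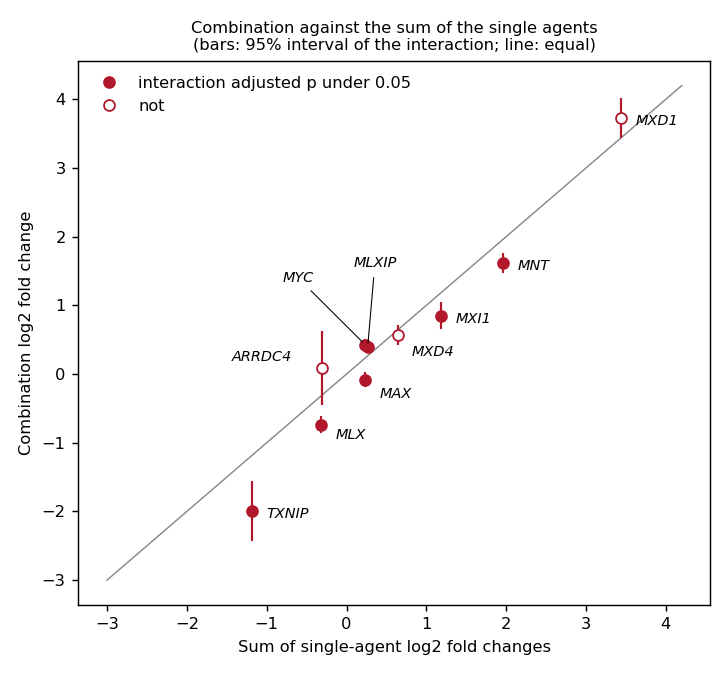
Observed log2 fold change with the combination (y axis) against the sum of the log2 fold changes with EC359 and trametinib alone (x axis) for the 10 members, with the 95% interval of the difference as bars and a line where both are equal. TXNIP, at -2.0 against a sum of -1.18, and MLX lie below the line, and MYC lies slightly above it.

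Ordered by level per kilobase of exon, MYC was first in every condition, with 60.3 ± 1.45 CPM per kb in control (SD, n = 3) and 81.1 ± 2.76 with the combination. In control it was followed by MLX, MAX, MLXIP, MXD4, MNT, MXI1, TXNIP, ARRDC4 and MXD1, and only the last 2 overlapped. With EC359, MNT (11.7 ± 0.12) passed MXD4 (8.90 ± 0.382), and MXD1 moved above both targets. With the combination MLXIP (17.1 ± 0.318) was second, ahead of MAX (16.3 ± 0.417) and MLX (15.6 ± 1.17), which overlapped with each other. MXD1 (6.20 ± 0.496) and MXI1 (5.42 ± 0.373) overlapped, as did ARRDC4 (0.597 ± 0.0821) and TXNIP (0.521 ± 0.153). TXNIP was thus in the last place with the combination, where MXD1 had been in control.

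Other genes of the network were examined from a list of 6 genes. MYCN had 0 counts in all libraries, which allows up to 0.0924 to 0.121 CPM per library and covers counting error only. MYCL, the third MYC family member, was at 2.70 ± 0.222 CPM in control (SD, n = 3) and fell by 0.63 with EC359 (edgeR adjusted p = 0.00317) and by 1.33 with the combination (adjusted p = 4.35e-08). MGA, a MAX partner of the repressive PRC1.6 complex, rose from 17.7 ± 0.988 CPM in control to 28.4 ± 0.485 with EC359 and 33.95 ± 1.84 with the combination, log2 fold changes of 0.68 (adjusted p = 3.37e-15) and 0.94 (adjusted p = 2.61e-21). MXD3, the MXD protein of dividing cells, was not called higher with EC359 or the combination, unlike the 4 antagonists. It rose with trametinib, from 17.9 ± 0.85 to 25.4 ± 1.38 CPM (0.50, adjusted p = 5.61e-09), was lower with EC359 (-0.18, adjusted p = 0.0175) and had -0.03 (adjusted p = 0.75) with the combination. PVT1, the long noncoding RNA gene next to MYC, shifted from control in the direction of MYC in all 3 treatments, by 0.64 for EC359, -0.33 for trametinib and 0.97 for the combination (adjusted p = 3.31e-14, 3.05e-05 and 5.1e-22). Between combination and EC359 alone the 2 genes went opposite ways, with 0.33 for PVT1 and -0.32 for MYC. MLXIPL (ChREBP), the other MLX partner, was low (1.14 ± 0.293 CPM in control) and was called higher with the combination (0.66, adjusted p = 0.0121), with values of 0.31 (adjusted p = 0.277) with EC359 and -0.06 (adjusted p = 0.89) with trametinib.

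MYC target genes were followed in a list of 73 known targets for ribosome production, nucleotide synthesis, translation and the cell cycle, of which 72 were tested. With trametinib, which lowered MYC, 59 were lower and 3 (MCM4, MCM5 and SHMT1, named after their values were seen) higher, with a median log2 fold change of -0.16, where 15.2% of all genes were lower and their median was 0.00. With EC359, which raised MYC, 43 were lower and 17 higher, with a median of -0.10, where 30.3% of all genes were lower and their median was -0.01. The combination, in which MYC was also above control, again had 43 lower and 15 higher, with a median of -0.21, where 34.7% of all genes were lower and their median was -0.01. Most MYC targets called with EC359 or the combination were therefore lower while MYC RNA was higher. The falls with the combination reached 2-fold for 4 of the 72 genes and no rise did, where 13.2% of all genes changed at least 2-fold in either direction. RRS1, a ribosome assembly factor, fell by 2.19 (SE 0.04, edgeR adjusted p = 4.66e-45), and POLR1B, the second subunit of RNA polymerase I, by 1.84 (SE 0.04, adjusted p = 8.68e-44), with falls in EC359 (-0.94 and -0.91) and trametinib (-0.51 and -0.31). The other two, NOP16 and MYBBP1A, both nucleolar proteins and named after their values were seen, fell by 1.07 and 1.05. TFRC, the transferrin receptor, and PPRC1, a coactivator of nuclear respiratory genes, had the largest rises with the combination, 0.59 each, and both were lower with trametinib, by -0.31 and -0.20. Scaling by library totals gave 55 lower and 11 higher targets with EC359, 49 lower and 4 higher with trametinib and 55 lower and 9 higher with the combination. In that setting the median of all genes was itself -0.15, 0.03 and -0.14 in the same order. Of all calls, 31.8%, 58.4% and 36.1% were higher there.

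**Figure D5:**
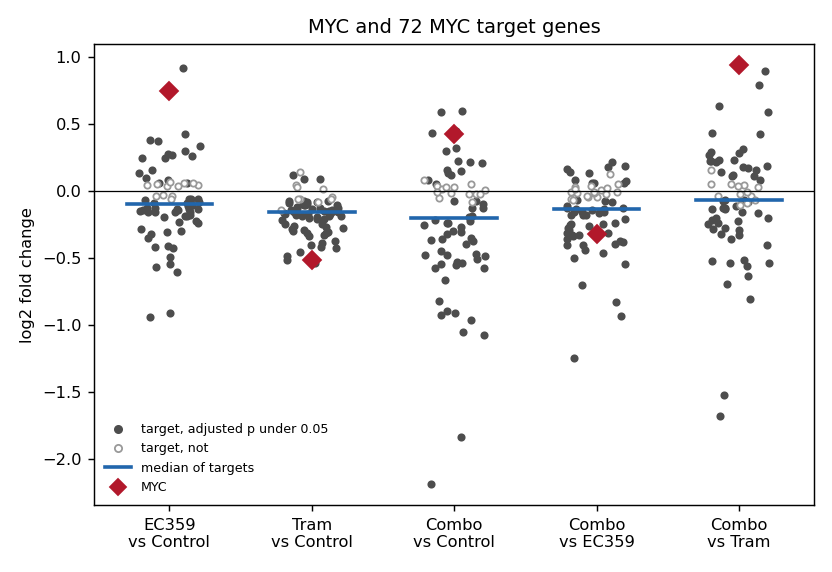
Log2 fold change (y axis) of 72 MYC target genes (points, filled where the adjusted p was under 0.05), their median (blue line) and MYC itself (red diamond) in 5 comparisons. MYC is at 0.75 and 0.43 with EC359 and the combination against control while the target medians are at -0.10 and -0.21, and with trametinib MYC and the median are both below 0.

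Between the combination and EC359 alone, 43 targets were lower and 11 higher (median -0.14, where 25.2% of all genes were lower). Between the combination and trametinib alone, 35 were lower and 24 higher (median -0.07, where 32.9% of all genes were lower), although MYC was higher there by 0.94. Against the sum of the single effects, 19 targets were above and 18 below, where 14.4% of all genes were above and 15.9% below. Genes that MYC is known to repress were also examined, a list of 10. With EC359, 7 were higher and 1 (NDRG2) lower (30.8% of all genes were higher), with trametinib 6 higher and 1 (NDRG1) lower (13% of all genes were higher), and with the combination 8 and 2 (35% of all genes were higher). CDKN1A, the inhibitor of cyclin-dependent kinases p21, rose by 3.54 with EC359 (SE 0.04, edgeR adjusted p = 4.8e-57) and by 3.36 with the combination, and had -0.08 (adjusted p = 0.298) with trametinib. GADD45A, a growth arrest gene, rose by 2.52 and 3.03 with EC359 and the combination and by 0.26 with trametinib. NDRG2 and CEBPA were the 2 that fell with the combination, by 0.52 and 0.26. CDKN1A and GADD45A are also targets of stress pathways, so the list is not specific to MYC.

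Of 13 further genes known as targets of MondoA or ChREBP, 10 were tested. With EC359, 6 were higher and 1 lower, against 30.8% and 30.3% of all genes. With trametinib 5 (ELOVL6, FASN, HK2, KLF10 and RGS16) were lower and none higher, against 15.2% and 13% of all genes. With the combination 8 were higher and 1 lower, against 35% and 34.7% of all genes. Of those called with EC359 or the combination, ELOVL6 had the direction of TXNIP and the others were higher. HK2, the inducible hexokinase that makes glucose 6-phosphate, rose by 2.44 with EC359 (SE 0.05, edgeR adjusted p = 5.64e-42) and 1.83 with the combination, and fell by 0.59 with trametinib. SCD, a fatty acid desaturase, rose by 1.41 and 0.89, and ELOVL6, a fatty acid elongase, was the single gene lower with EC359 (-0.21) and the combination (-0.67). Among 9 genes of the thioredoxin system and glucose entry, which TXNIP restrains, 6 were higher and 2 lower with EC359 (61% of all genes called), 1 (TXNRD1) higher and 6 lower with trametinib (28.3%), and 7 higher and 2 lower with the combination (69.7%). The glucose transporters SLC2A3 and SLC2A1 rose by 3.01 and 1.39 with EC359 and by 2.76 and 1.22 with the combination, and fell by 0.47 and 0.32 with trametinib. TXNRD1, the cytosolic thioredoxin reductase, rose by 1.73 with EC359 and 1.59 with the combination, whereas the mitochondrial reductase TXNRD2 and the mitochondrial thioredoxin TXN2 fell by 0.23 and 0.30 with the combination. Of the other alpha-arrestins, 3 were tested. ARRDC2 rose with EC359 (0.92) and the combination (0.86), opposite to TXNIP. ARRDC3 was lower with EC359 (-0.63, edgeR adjusted p = 0.0294) and higher with trametinib (0.67, adjusted p = 0.0203). With the combination it was not called (-0.36, adjusted p = 0.191). Its values rest on few counts, 66 to 184 per condition. ARRDC1 was not called with any treatment.

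Among 9397 genes of at least 10 CPM, those whose log2 CPM followed MYC most closely over the 12 libraries were IRF2BP2, PLXNA1 and MCL1, with Pearson's r of 0.996, 0.996 and 0.995. IRF2BP2 had mean levels of 74.2 CPM for control, 186 for EC359, 44.05 for trametinib and 121 for the combination, and MCL1, a survival gene of the BCL2 family, had 256, 522, 163 and 385 CPM. Both repeated the order of MYC, lowest with trametinib and highest with EC359. The genes most like TXNIP were ZFP62, LOC643201 and HAUS8, with r of 0.986, 0.985 and 0.985, and ZFP62 had means of 20.7, 13.9, 22.4 and 10.6 CPM in the same conditions. These values rest on 4 conditions with 3 libraries each, which also share the scaling, and are a description only.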

How the data were processed

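RNA from the 12 OVCAR8 libraries was analysed from the deposited tables. The submitters' processing notes name bcl2fastq, HISAT2 and hg38. Per the file headers, the authors counted paired, reverse-stranded reads on exons with featureCounts 1.5.0-p1 at a minimum mapping quality of 2 and divided reads with several placements or genes as fractions, so the deposited values are estimated counts without normalization. Of the genes, 12.4% to 15.1% per library had values that were not whole, which were rounded here.

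In R 4.3.3, edgeR 4.0.16 removed genes of low counts (filterByExpr, minimum count 10 and total 15) and kept 14866 of 26485, with TMM factors of 0.947 to 1.06, and with 1 robust quasi-likelihood model of the 4 conditions. CPM and CPM per kb of annotated exon were computed from these counts. Calls needed an adjusted p under 0.05. The interaction was combination minus EC359 minus trametinib plus control. A count of 0 allows up to 3 counts, 0.0924 to 0.121 CPM.

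Named were all 10 members, from each list up to 2 rises and 2 falls with the combination among called genes of at least 10 CPM, the 3 genes most like MYC and TXNIP, and a few genes chosen after their values were seen. Members and lists were chosen with earlier results of these data known. Promoter windows were RefSeq's (GRCh38.p14). Alternatives were DESeq2 1.42.0, its size factors, library totals only, other filters, a block for the replicate number, a fit of only the groups compared, a 2-fold minimum and each library left out in turn.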

Additional observations from a re-analysis of the deposited data

Results flagged for a closer look

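For 7 of the 10 members the effect of trametinib differed with and without EC359 by edgeR's interaction test with Benjamini-Hochberg adjustment over all genes, against 30.3% of all genes. On the log2 scale the combination was below the sum of the single agents by -0.82 for TXNIP, -0.42 for MLX, -0.35 for MNT, -0.33 for MXI1 and -0.32 for MAX, and above it by 0.19 for MYC and 0.13 for MLXIP. Each direction was also found whenever 1 library was left out, and the value for MLXIP lost its call without control library 3 (0.11) or trametinib library 1 (0.11). TXNIP had -0.66 between combination and EC359 against 0.15 between trametinib and control. For MAX, the corresponding differences were -0.40 and -0.08. With 3 libraries per condition, no test for a single library far from the others was made. Count differences between replicate libraries were described by chi-square per degree of freedom. It was 6.56 and 7.36 for control library 2 against the other controls, and 2.775 between those. In the other conditions it ran from 2.67 to 4.79.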

How the results depend on the processing

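With at least a 2-fold change required, the members called numbered 4, 0, 3, 0, 3 and 0 for EC359, trametinib and combination against control, combination against EC359, combination against trametinib and the interaction, and the MYC targets called numbered 0, 0, 4, 1, 2 and 0, against 8, 5, 8, 7, 8 and 7 members and 60, 62, 58, 54, 59 and 37 targets without it. Of all genes, 6.99%, 1.43%, 13.2%, 3.24%, 11.6% and 1.57% were called at 2-fold or more, in the same order. All other alternatives kept the counts of members and targets within 1.5 times. Directions reversed for values near 0 that had no call in the reported test. MAX between combination and trametinib was -0.0014 with DESeq2, -0.0014 with its size factors, -0.164 with library totals, -0.005 without a filter, -7e-04 with at least 10 counts in every library, -0.0121 with only the groups compared, and -0.0255 to 0.024 with 1 library left out. With library totals MLXIP was 0.003 with trametinib, and ARRDC4 was -0.0571 with the combination and -0.0974 for combination against trametinib. With 1 library left out, MLXIP with trametinib ran from -0.0512 to 0.0015, ARRDC4 from -0.0924 to 0.236 with trametinib, -0.0251 to 0.304 with the combination and -0.0294 to 0.169 for combination against trametinib, and MNT for combination against EC359 from -0.0624 to 0.0081. The causes were not tested.

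The replicate numbers did not pair the samples, since deviations of same-numbered libraries correlated between -0.067 and 0.029 (18 pairs). With the replicate number as a block, 8, 5, 8, 7, 8 and 7 members were called, and no member's call changed. TXNIP, ARRDC4 and control MXD1 rest on few counts, which limits the precision of their folds.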

Other observations

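Cofactors and turnover regulators of the network were measured in lists not described above. Of 12 MYC coactivators, 6 were higher and 5 lower with EC359 (KAT2A, MYCBP, RUVBL1, RUVBL2 and WDR5), 2 higher (BPTF and EP400) and 3 lower (KAT2A, RUVBL1 and WDR5) with trametinib, and 6 higher and 4 lower (MYCBP, RUVBL1, RUVBL2 and WDR5) with the combination. ZBTB17 (MIZ1), through which MYC represses genes, and BPTF, a chromatin remodeler, rose by 0.91 and 0.75 with the combination, and WDR5 and MYCBP fell by 0.43 and 0.41. SAP30 and SIN3B, subunits of the SIN3 corepressor complex that MXD proteins recruit, rose by 0.74 and 0.32 with the combination. The coactivator counts stand beside 61%, 28.3% and 69.7% of all genes called with EC359, trametinib and the combination.

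Of 17 genes that act on the stability of MYC protein, 8 were higher and 6 lower with EC359, 3 higher (HUWE1, PIM1 and USP22) and 1 lower (USP36) with trametinib, and 8 higher and 6 lower with the combination, beside the same 61%, 28.3% and 69.7% of all genes called. PIM1, a kinase that phosphorylates MYC, rose by 2.86 for EC359, 0.32 for trametinib and 2.58 for the combination (edgeR adjusted p = 1.05e-48, 1.33e-05 and 2.49e-46). SKP2, a ubiquitin ligase subunit that acts on MYC, fell by 1.63 with EC359 and 1.94 with the combination, and AURKA, a kinase that binds MYC family proteins, by 0.55 and 0.87. USP37, a deubiquitinase of MYC, rose by 0.66 and 0.87. MYC protein was not measured in these files.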
